A study of Macaca fascicularis with 11 samples.

Results

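LAIR2, ISM2, LGALS3, ECM1 and CALCB were followed across 11 single-cell libraries of cynomolgus macaque embryos cultured in vitro. These 5 genes, of 19367 in the expression matrix, were selected on measured values of the same data, because they led one small trophoblast group at Day 10 together. Their Day 10 levels, the way they rise together there and the Day 10 differences between genotypes are therefore descriptions and carry no test. In the deposited identifiers they are ENSMFAG00000041384 (LAIR2), ENSMFAG00000039426 (ISM2), ENSMFAG00000036153 (LGALS3), ENSMFAG00000040115 (ECM1) and ENSMFAG00000037050 (CALCB).

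The study asked what the transcription factor ISL1 does in the primate embryo around implantation, using wild-type embryos and ISL1 hypomorphic mutants sampled on Days 10, 12 and 14. All embryos were frozen blastocysts that were thawed and grown without a uterus. Mutants came from zygotes injected with Cas9 and guide RNAs, so that each embryo was a mosaic of edited cells and each mutant library a mixture of alleles. Wild type had 2 libraries at each day, each a pool of 1 to 3 embryos, which made 12 embryos. The mutants had 1 library at Day 10 and 2 at each later day, from 11 embryos, and both mutant libraries of batch B2 held 1 embryo each.

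During implantation, trophoblast cells leave the proliferating cytotrophoblast layer and either fuse into the hormone-producing syncytiotrophoblast or become extravillous cells that invade the maternal tissue. LAIR2 is a secreted relative of the inhibitory receptor LAIR1 and binds collagen. ISM2 is a secreted isthmin-domain protein known from placenta. LGALS3 encodes galectin-3, a lectin that binds galactose-containing sugars on the cell surface and matrix, ECM1 encodes a secreted glycoprotein of the extracellular matrix, and CALCB encodes a calcitonin gene-related peptide, a vasodilator.

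Each library held between 325 and 9625 cells and between 36654977 and 164808415 unique molecular identifiers (UMIs, 1 for each captured RNA molecule). Cells were clustered within each library without the 5 genes, and clusters were named from marker genes. Of 33330 cells, 23007 were trophoblast-like, between 47.2% and 90.8% of a library. The trophoblast-like cells held a median of 27522 to 143737 UMIs per cell in the wild-type libraries and 11403 to 115047 in the mutants. Both wild-type libraries were deeper than both mutant libraries at Day 12, whereas the mutant library was the deepest of Day 10 and the depths overlapped at Day 14. Levels are given as CPM, the UMIs of a gene per 1000000 UMIs, summed over the cells of a class in a library. In such sums, fewer expressing cells and less RNA per cell cannot be told apart.

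LAIR2 was nearly absent from wild-type trophoblast at Day 10 and abundant at every later stage. Its level was 1.91 and 3.94 CPM in the Day 10 libraries (62 and 134 UMIs), 392 and 322 CPM at Day 12, and 1565 and 420.4 CPM at Day 14. In the mutants it was 356 CPM at Day 10, 953 and 1041 CPM at Day 12, and 1454 and 1599 CPM at Day 14. The only mutant library of Day 10 thus lay beside the wild-type libraries of Day 12. That mutant library held a Day 10 cluster that led in all 5 genes. Its level above wild type at Day 10 therefore follows in part from the choice of the genes. At Day 14 the higher wild-type library lay within the range of the mutants.

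ISM2 was also nearly absent from wild-type trophoblast at Day 10. It stood at 3.02 and 3.82 CPM in wild-type trophoblast at Day 10, at 77.2 and 204 CPM at Day 12, and at 639.6 and 125 CPM at Day 14. The mutant levels were 105 CPM at Day 10, 485 and 605 CPM at Day 12, and 1026 and 790.0 CPM at Day 14. At Day 12 and Day 14 both mutant libraries were above both wild-type libraries.

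LGALS3 and ECM1 were already present in wild-type trophoblast at Day 10. LGALS3 measured 84.4 and 29.0 CPM at Day 10, 305 and 218 CPM at Day 12, and 1586 and 255 CPM at Day 14 in wild type, and 430.4, then 584 and 1040 (to the nearest whole number), then 922 and 672 CPM at the same days in the mutants. ECM1 measured 65.1 and 23.3, then 175 and 71.1, then 711 and 109 CPM in wild type, and 275, then 580.3 and 664, then 744 and 737 CPM in the mutants. For ECM1 the mutant libraries were above the wild-type libraries at every day, whereas at Day 14 the LGALS3 levels overlapped.

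CALCB was highest in the mutant libraries of Day 12, but its differences between days and genotypes did not pass the test. In wild type it measured 38.8 and 15.2 CPM at Day 10, 454 and 682 CPM at Day 12, and 1626 and 533 CPM at Day 14. In the mutants it was 322 CPM at Day 10, 2051 and 1785 CPM at Day 12, and 964 and 636 CPM at Day 14. Both Day 12 mutant libraries were thus above all the other libraries, and the Day 14 libraries of both genotypes overlapped.

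**Figure D1:**
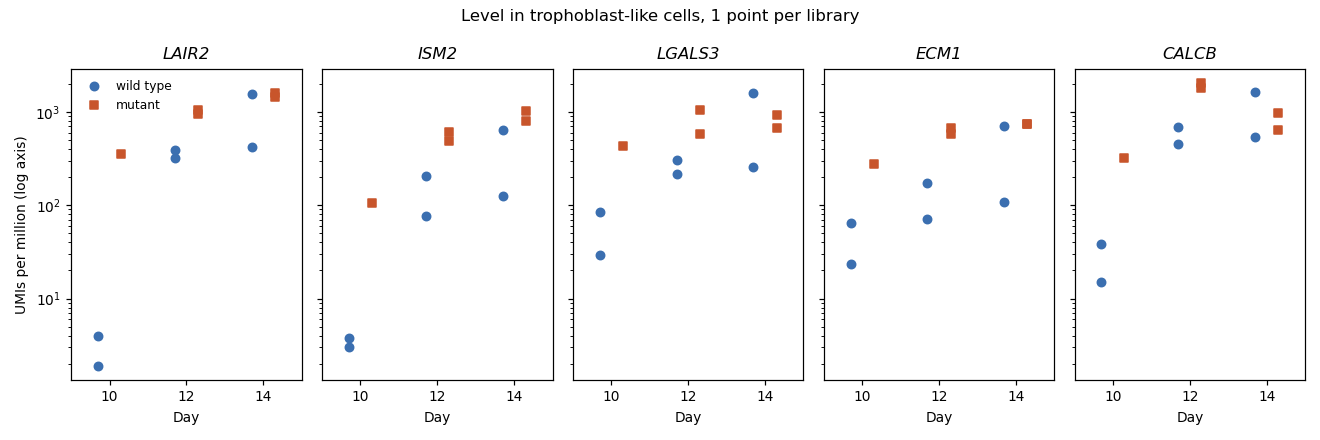
Level of each gene (CPM, log axis) in the trophoblast-like cells of each library against day; circles are wild-type libraries, squares mutant libraries, 1 point each. The wild-type libraries of Day 10 sit lowest for all 5 genes. For LAIR2 the single mutant library of Day 10, with 356 CPM, sits near the lower end of the later libraries (322 to 1599 CPM).

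The differences between genotypes did not pass the test at either later day. At Day 12 the mutant was higher for all 5 genes, by a log2 fold change of 1.42 ± 0.58 (SE) for LAIR2, 1.94 ± 0.71 for ISM2, 1.57 ± 0.83 for LGALS3, 2.25 ± 0.89 for ECM1 and 1.72 ± 0.60 for CALCB, with adjusted p-values between 0.271 and 0.421 (edgeR quasi-likelihood test, 2 libraries against 2). None of the 5 was called at a false discovery rate of 1%, and 1 gene of 15115 tested was, 0.00662% (0 genes with the replicate block within genotype; 270 by DESeq2, none of them a member). At Day 14 the values were 0.58 ± 0.57 for LAIR2, 1.19 ± 0.69 for ISM2, -0.27 ± 0.81 for LGALS3, 0.79 ± 0.85 for ECM1 and -0.48 ± 0.59 for CALCB, with adjusted p-values from 0.471 to 0.908. No gene was called there, 0% of 15115, although 2140 had an unadjusted p below 0.05 and DESeq2 called 286 genes, none of them a member. Without the B1 wild-type library of Day 14, which was the highest wild-type library for all 5 genes, the LGALS3 and CALCB differences turned to 1.75 and 0.68, and those of LAIR2 and ECM1 were 1.97 and 2.87. Without the B2 wild-type library of Day 14, LAIR2 and ECM1 turned to -0.11 and -0.024. Counts were also simulated with the spread typical of a gene's expression level, not each gene's own, and with equal base levels in all groups. On them, the Day 14 comparison recovered 84% of genes changed by a log2 fold change of 2 and 3% of those changed by 1. Recovery at the members' own spread was not simulated. The Day 12 comparison was not simulated.

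Between Day 12 and Day 14 no member passed the test in either genotype. In wild type the log2 fold changes were 1.52 ± 0.58 for LAIR2, 1.55 ± 0.70 for ISM2, 1.87 ± 0.84 for LGALS3, 1.78 ± 0.87 for ECM1 and 1.00 ± 0.59 for CALCB, with adjusted p-values from 0.509 to 0.656 (edgeR). These differences rested on the B1 library of Day 14: without it, LAIR2 alone stayed positive, and the others lay between -0.15 and -0.30. No gene of 15115 was called (0%), with 1358 below an unadjusted p of 0.05 and 98 called by DESeq2. In the mutants LAIR2 changed by 0.69 ± 0.57, ISM2 by 0.80 ± 0.69, LGALS3 by 0.03 ± 0.81, ECM1 by 0.32 ± 0.85 and CALCB by -1.20 ± 0.60, with adjusted p-values from 0.501 to 0.997, where 1 gene was called (0.00662%; 0 with the replicate block and 176 by DESeq2). The change of the mutant effect from Day 12 to Day 14 was -0.84 ± 0.81 for LAIR2, -0.76 ± 0.97 for ISM2, -1.85 ± 1.16 for LGALS3, -1.46 ± 1.20 for ECM1 and -2.20 ± 0.84 for CALCB, with adjusted p-values from 0.505 to 0.853 (edgeR). Without the B1 wild-type library of Day 14 it was 0.56, 1.02, 0.18 and 0.62 for the first 4 and -1.03 for CALCB. It passed for no member and no gene (0%, with 1408 below an unadjusted p of 0.05 and 91 called by DESeq2).

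Outside trophoblast, the 5 genes differed in how far they were restricted. Among the named cell classes, with unnamed cells left out, LAIR2 and ECM1 were highest in trophoblast-like cells in 11 of 11 libraries. This held for ISM2 and LGALS3 in 10 of 11 and for CALCB in 9 of 11. In Epi-derived-like cells (epiblast, amnion and mesoderm together) LAIR2 ranged from 0 to 60.2 CPM with a median of 0.87, and ISM2 from 0 to 58.6 CPM with a median of 2.40. Cells with at least 5000 UMIs were thinned to 5000, which left out up to 711 trophoblast-like cells of a library. The expected share with a LAIR2 UMI was then 24.8% to 51.5% in trophoblast-like cells of Day 12 and Day 14. In Epi-derived-like cells it was 0% to 6.54%. Free RNA in the droplets gives such low shares in cells that do not express a gene, and its part in the values outside trophoblast was not tested. LGALS3 had a higher floor, with 21.5 to 119 CPM in Epi-derived-like cells. In the B2 wild-type library of Day 10 it was higher in them (42.7 CPM) than in trophoblast (29.0 CPM).

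CALCB was higher in Epi-derived-like cells than in trophoblast in both wild-type libraries of Day 10. Its level was 249 and 26.4 CPM in Epi-derived-like cells, above the 38.8 and 15.2 CPM of trophoblast. The Epi-derived-like cluster with the most CALCB in each wild-type library held 897 CPM in B1 (39 cells) and 95.9 CPM in B2 of Day 10, 0.52 CPM in B1 and 756 CPM in B2 (81 cells) of Day 12, and 469 CPM in B1 (211 cells) and 247 CPM in B2 of Day 14. The 3 of these highest in CALCB also held MESP1, a transcription factor of early mesoderm, at 152, 253 and 848 CPM, and MIXL1, a factor of the primitive streak, at 225, 245 and 663 CPM. These genes and CALCB did not keep one order, since the B2 cluster of Day 10 held 593 CPM of MESP1 and 273 CPM of MIXL1 with its 95.9 CPM of CALCB, and the B2 cluster of Day 14 held 49.0 CPM of MESP1. LAIR2 was at 0, 0.39 and 26.0 CPM in the 3 clusters; within trophoblast, 1 CGA-rich cluster of 23 cells in the B1 wild-type library of Day 12 also held CALCB (1266 CPM) with little LAIR2 (11.5 CPM). In the mutants the highest Epi-derived-like CALCB level was 217 CPM.

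**Figure D2:**
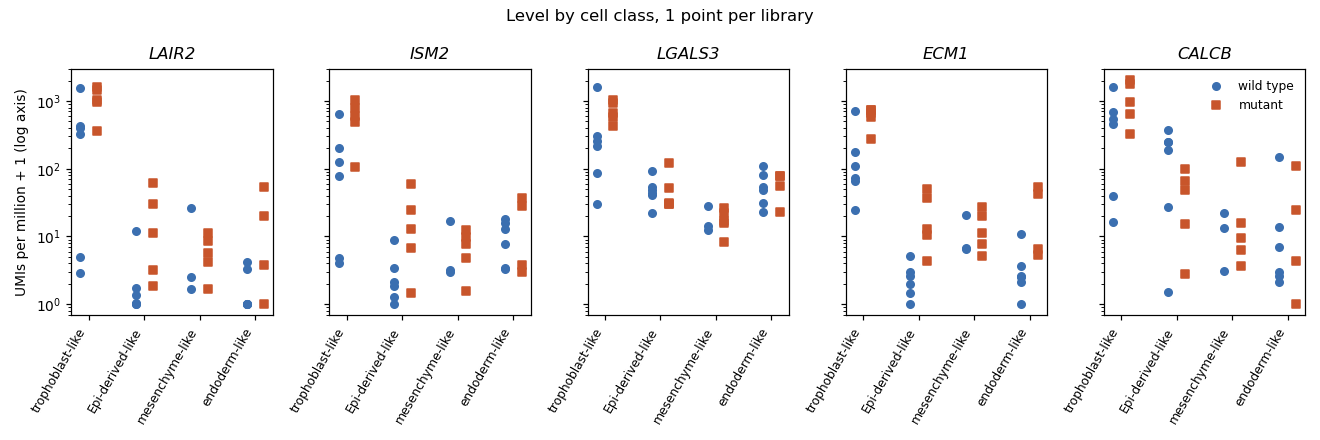
Level of each gene (CPM plus 1, log axis) by cell class; circles are wild-type and squares mutant libraries, 1 point for each library with at least 5 cells of the class. Among the named classes, with unnamed cells left out, LAIR2 and ECM1 are highest in trophoblast-like cells in every library. ISM2 is so in all but the B2 wild-type library of Day 10 (3.82 CPM against 14.6 CPM in endoderm-like cells). CALCB reaches 376 CPM in Epi-derived-like cells of wild type.

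To ask whether the 5 genes marked the same cells at Day 12 and Day 14, trophoblast-like cells were split by LAIR2. The group that chose the genes was of Day 10. The genes were, however, paired through the study's tables of genes that differed between cells or genotypes in these same data. LAIR2 was taken for the split because its detection was the least common among the members that the study's trophoblast table holds. A cell was called LAIR2-high when it held at least 100 CPM of LAIR2. This limit, also used for the other genes, takes fewer UMIs in a shallow cell than in a deep one. Between 24.8% and 53.0% of trophoblast-like cells passed in the 8 libraries of Day 12 and Day 14, and between 5.23% and 14.2% lay near that limit, at 50 to 200 CPM. LAIR2-high cells were somewhat deeper, with medians of 14092 to 158203 UMIs against 10112 to 137365 in the others, and held less mitochondrial RNA in each of the 8 libraries (2.05% to 6.36% against 3.31% to 9.26%).

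The other 4 members were all higher in LAIR2-high cells. CALCB reached 769 to 3980 CPM (to the nearest whole number) in them and 59.7 to 225 CPM in the others, a log2 fold change of 4.57 ± 0.39. ISM2 reached 102 to 1937 CPM against 49.96 to 129 CPM, a change of 3.16 ± 0.35. LGALS3 reached 405 to 2131 CPM against 120 to 696 CPM, a change of 2.36 ± 0.28, and ECM1 reached 123 to 1120 CPM against 43.8 to 467 CPM, a change of 1.60 ± 0.19. Over all 8 libraries the ranges of the 2 cell groups overlapped for ISM2, LGALS3 and ECM1, but not for CALCB. The ratio of LAIR2-high to other cells was 1.73 to 7.94 for ISM2 in the wild-type libraries and 11.2 to 17.2 in the mutant ones. For LGALS3 it was 2.34 to 3.38 against 5.58 to 10.7. The genotypes overlapped for ECM1 (1.57 to 2.81 against 2.26 to 5.94) and CALCB (3.41 to 33.2 against 15.9 to 34.2). This difference between genotypes was not tested. Within each library all 4 genes were higher in LAIR2-high cells. All 4 passed at a false discovery rate of 1% with adjusted p-values of 1.63e-05 for CALCB, 6.41e-05 for ISM2, 0.000106 for LGALS3 and 0.000101 for ECM1 (edgeR, library as block). The split was a broad one: 44.7% of 12398 genes were called, and 22.4% were called higher. The median log2 fold change was 2.76 over the 4 members and near 0 over all genes. The members were paired through the study's tables of genes that differed in these data. All genes are therefore not a like background for them. Scaling by library totals left all 4 members called and changed the balance of all calls from 2780 of 5546 higher to 2061 of 5956. Without the library block, ECM1 fell just short of the threshold, with an adjusted p of 0.0111. Splitting by ISM2 in place of LAIR2 gave LAIR2 a log2 fold change of 3.04 ± 0.57, with an adjusted p of 0.00164 (edgeR), higher in 8 of 8 libraries.

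**Figure D3:**
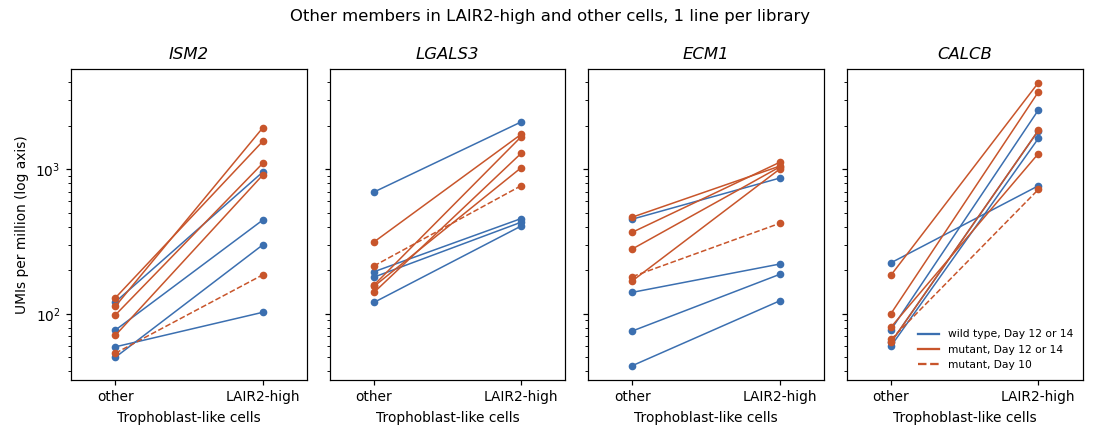
Level of ISM2, LGALS3, ECM1 and CALCB (CPM, log axis) in LAIR2-high and in other trophoblast-like cells, with 1 line per library; solid lines are Day 12 and Day 14, the dashed line the mutant library of Day 10. All lines rise, CALCB from at most 225 CPM, and the shallowest ISM2 line is the B1 wild-type library of Day 12, from 59.0 to 102 CPM. The dashed line is of the day that chose the genes and carries no test.

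The mutant library of Day 10, which held almost all LAIR2-high cells of that day, had the same direction for all 4 genes. Because a Day 10 trophoblast group chose the genes, this direction follows in part from the choice and is given without a test. The same holds for the cluster that led in all 5 genes. The 163 LAIR2-high cells of the mutant library held 186 CPM of ISM2 against 53.3 CPM in the other cells. For LGALS3 the values were 771 against 214 CPM, for ECM1 423 against 181 CPM and for CALCB 726 against 66.4 CPM. The cluster that led in all 5 genes had 69 cells. It held 1114 CPM of LAIR2, 429 CPM of ISM2, 1484 CPM of LGALS3, 829 CPM of ECM1 and 1403 CPM of CALCB. The wild-type libraries of Day 10 held 2 LAIR2-high cells each.

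The members shared cells to different degrees. In LAIR2-high cells of Day 12 and Day 14, between 34.8% and 92.2% also had at least 100 CPM of ISM2, against 16.7% to 41.0% of the other cells. For CALCB the shares were 56.1% to 88.2% against 7.90% to 33.9%. All 5 genes reached 100 CPM in 51.3% to 76.7% of LAIR2-high cells in the mutant libraries. In wild type the share was 65.8% in the B1 library of Day 14 and 24.3% to 28.6% in the other libraries of these days. For LGALS3 in the B1 wild-type library of Day 14, 94.7% of LAIR2-high and 97.4% of other cells passed. Over the cells of a library, the Spearman correlation of LAIR2 with ISM2 was 0.16 to 0.75 in the wild-type libraries of Day 12 and Day 14 and 0.65 to 0.81 in the mutant ones, with 295 to 6497 cells that share a library and its depth.

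LAIR2-high cells differed widely in CGA, the shared alpha subunit of the glycoprotein hormones, which syncytiotrophoblast makes. They were divided at 20000 CPM of CGA, a limit set after the values were seen, so that the values are descriptions. In the 9 libraries other than wild-type Day 10, the cells above the limit held less ISM2, LGALS3, ECM1 and CALCB than the cells below it in 9 of 9 libraries. The medians were 113 against 1005 CPM for ISM2, 371 against 1113 CPM for LGALS3, 219 against 921 CPM for ECM1 and 1062 against 1880.3 CPM for CALCB. LAIR2, which chose the cells, was lower above the limit in 5 libraries and higher in 4.

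The same was seen in part over clusters. Of 15 trophoblast-like clusters with at least 20000 CPM of CGA in these libraries, 11 held at least 100 CPM of LAIR2 and 4 held less. The 4 were a cluster of each wild-type library of Day 12, with 11.5 and 88.7 CPM of LAIR2, and a cluster of each mutant library of Day 14, with 37.7 CPM (203 cells) and 67.8 CPM (247 cells). In each library, the trophoblast-like cluster highest in CGA was then set against the one highest in ISM2, again after the values were seen. In the B1 library of wild-type Day 14, the cluster highest in CGA held 2075 CPM of LAIR2 and 18.6 CPM of ISM2, whereas the ISM2-rich cluster held 5219 and 1857 CPM. In the B2 library the corresponding values were 1629 and 7.97 CPM against 1572 and 825 CPM. In the B2 mutant library of Day 12 they were 1509 and 8.28 CPM against 3712 and 2455 CPM, and in the mutant library of Day 10 917 and 8.96 CPM against 1114 and 429 CPM. The ratio of LAIR2 to ISM2 was 1.25 to 2.81 in the ISM2-rich clusters of the 9 libraries other than wild-type Day 10 and 4.64 to 204 in their clusters highest in CGA. The first range is low in part by the choice of the clusters. The low end was the B2 wild-type library of Day 12, whose cluster highest in CGA held 88.7 CPM of LAIR2 and 19.1 CPM of ISM2. Some of these clusters were shallow, with a median of 4069 UMIs per cell in the B1 mutant library of Day 14.

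**Figure D4:**
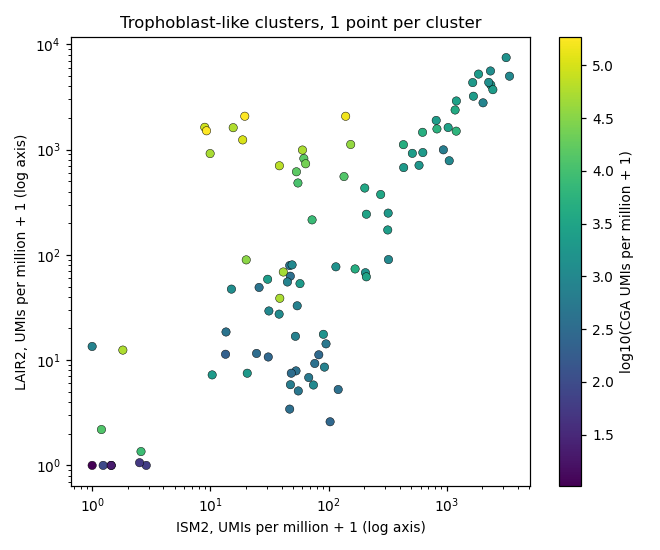
LAIR2 against ISM2 (CPM plus 1, log axes) in 95 trophoblast-like clusters of 11 libraries, coloured by the log10 of CGA. Most clusters rise along the diagonal to 7486 CPM of LAIR2, and a group of CGA-rich clusters has high LAIR2 with ISM2 as low as 7.97 CPM.

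CALCB and ISM2 also led different clusters in the later mutants. In the B1 mutant library of Day 14, the ISM2-rich cluster of 699 cells held 4983 CPM of LAIR2 and 859 CPM of CALCB, and another cluster of 296 cells held 4355 CPM of LAIR2, 2265 CPM of ISM2 and 7934 CPM of CALCB. In the B2 library, the ISM2-rich cluster held 551 CPM of CALCB, against 2507 CPM in the cluster that led for it. In the cluster richest in PAGE4, a gene of cytotrophoblast, LAIR2 was low in each library of Day 12 and Day 14, from 2.43 to 54.3 CPM, whereas ECM1 ranged from 12.5 to 589 CPM there. Some of these clusters were shallow for their library, with little mitochondrial RNA: wild-type Day 12 B1 (12 cells, 0.0558%), wild-type Day 14 B2 (6710 UMIs, 0.230%) and mutant Day 14 B1 (3441 UMIs, 0.455%) and B2 (8023 UMIs, 0.523%). Both the 54.3 CPM of LAIR2 and the 12.5 CPM of ECM1 came from such clusters.

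Of 38 genes listed for extravillous trophoblast, 14 were paired with an identifier and tested. In LAIR2-high cells 10 of them were higher, where 22.4% of all genes were, 0 were lower and 4 did not pass, with a median log2 fold change of 1.79. The furthest from 0 were FN1, which encodes fibronectin, at 5.64 ± 0.27, and IGFBP3, a binder of insulin-like growth factors, at 5.18 ± 0.22. SERPINE2, a protease inhibitor, at 4.52 ± 0.87, and ADAM19, a metalloprotease, at 3.98 ± 0.64 came next. SERPINE2 was higher in 7 of 8 libraries. ADAM19 was scarce, with a median of 7.42 CPM in LAIR2-high and 0.47 CPM in other cells. PLAU, TGFB1, TGFBI and COL4A2 did not pass. Genes were paired only through the study's tables of genes that differed between cells or genotypes in these same data. The share of 22.4% over all genes is therefore not a like background for the 14. The list was also chosen with earlier results of these data known. The count thus does not check the label invasive trophoblast, and the other 24 genes were not analysed here.

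Syncytiotrophoblast genes were in part also higher in LAIR2-high cells. Of 4 tested, INSL4, an insulin-like peptide of the placenta, changed by 3.39 ± 0.20 and GCM1, a regulator of trophoblast fusion, by 1.33, whereas CGA (1.60, adjusted p = 0.0105, edgeR) and HSD3B1 (0.65) did not pass. Of 6 cytotrophoblast genes tested, 3 were lower: BCAM by -2.15, the integrin ITGA6 by -1.49 and PAGE4 by -1.16. Of 5 cell cycle genes tested, 4 were lower, CCNB2 by -1.57, PCLAF by -1.13, GINS2 by -1.06 and MKI67 by -0.89, and CCNE1 was higher by 0.50. Of all genes, 22.4% were called higher and 22.3% lower, and the lists were not tested as sets. The genes of these lists were paired through the same tables, so that the same limit holds.

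Among relatives and partners of the members, 5 of 17 were tested, and 2 were higher in LAIR2-high cells, where 22.4% of all genes were. COL4A1, a basement membrane collagen, changed by 1.92, and CTSL, a lysosomal protease, by 1.49, from a median of 804 CPM in other cells to 2518 CPM. ISM1, LGALS1 and COL3A1 did not pass, and all 5 were paired through the same tables.

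The genes most like the members were sought only among those paired with a symbol, which were 1020 of 19367 identifiers, with an average of at least 10 CPM and the same sign in 8 of 8 libraries. By the size of the change they included PECAM1, an adhesion molecule of endothelium, at 3.76 ± 0.30, FHL2, a LIM-domain cofactor, at 3.70 ± 0.49, INSL4, and ANXA1, an annexin, at 3.37 ± 0.62, after FN1 and IGFBP3. TSPO, from a median of 4.27 to 47.3 CPM, ENO3 at 2.97, the steroid enzyme HSD17B2 at 2.81 and the lipase MGLL at 2.70 followed. PECAM1 rose from a median of 47.3 CPM in other cells to 769.5 CPM. Within the same limits, the genes lower in LAIR2-high cells were led by CCND1, a cyclin of the G1 phase, at -3.69 ± 0.31, from a median of 112 to 7.37 CPM, and NRP2, a semaphorin receptor, at -2.66 ± 0.24. CENPV (-2.59), LOC102116612 (-2.54), L1TD1 (-2.37), CLU (-2.30), BCAM, NLRP7 (-2.02), LOC102145938 (-1.90) and PKIG (-1.87) completed the list.

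The share of LAIR2-high cells was compared between genotypes over libraries. The wild-type libraries of Day 10 had 0.445% (95% exact binomial interval 0.0540 to 1.60) and 0.633% (interval 0.0767 to 2.27). Those of Day 12 had 38.0% (interval 32.4 to 43.8) and 34.6% (interval 30.8 to 38.5), and those of Day 14 had 53.0% (interval 50.9 to 55.0) and 24.8% (interval 22.0 to 27.8). The mutant library of Day 10 had 35.8% (interval 31.4 to 40.4). For the later mutants the shares were 46.0% (interval 44.5 to 47.5) and 41.8% (interval 40.3 to 43.3), then 41.2% (interval 40.0 to 42.4) and 35.8% (interval 34.0 to 37.6). These intervals cover counting error only, and the spread between the libraries of wild-type Day 14 went far beyond them. The group that chose the genes held no Day 12 or Day 14 cells. Over these days the mean difference was 3.60 percentage points higher in the mutants. It did not pass an exact permutation test within days (two-sided p = 0.722). The smallest p possible in that test is 0.0556, so that the design cannot pass 0.05. Without the B1 wild-type library of Day 14 that difference was 10.6 percentage points, and without the B2 library it was -3.43 percentage points. With Day 10 included it was 14.2 percentage points, given without a test because Day 10 chose the genes. The LAIR2-high cells behind these shares differed in CGA: 10.8% to 39.0% of LAIR2-high cells in the 4 wild-type libraries of Day 12 and Day 14 held at least 20000 CPM of CGA, against 3.03% to 16.7% in the 4 mutant libraries, and the part of this in the shares was not tested.

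**Figure D5:**
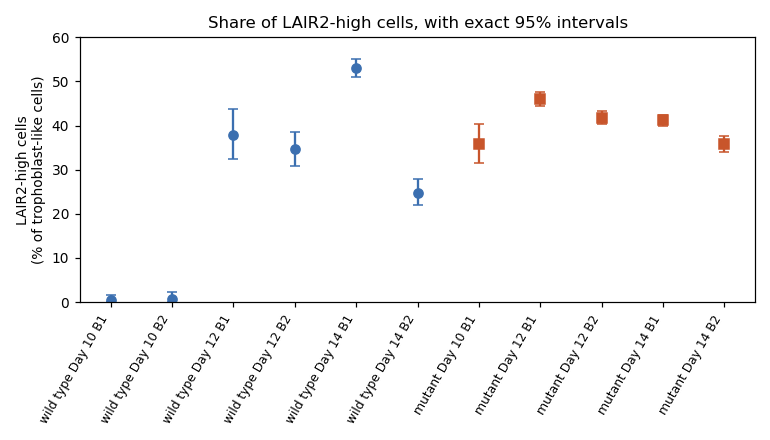
Share of LAIR2-high cells among trophoblast-like cells (percent) in each library; circles are wild type, squares mutant, and bars exact 95% binomial intervals. The wild-type libraries of Day 10 are below 1%, and the others lie between 24.8% and 53.0%.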

How the data were processed

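The 11 libraries were made with 10x 3′ v3 chemistry. Per the submitters' notes Cell Ranger 3.1.0 was used. The deposited matrix holds estimated counts of UMIs that the authors corrected for free RNA with SoupX (33330 cells), and a second deposited matrix holds the uncorrected counts (33539 cells). Symbols came from the study's gene tables, which paired 1020 of 19367 identifiers. These tables hold genes picked in the same data for differing between cell groups, between genotypes or along epiblast development. The 5 genes and all lists were chosen with earlier results of these data known.

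Cells were clustered per library (2000 variable genes without the members, 30 components, Leiden algorithm, igraph 0.11.9) into 163 clusters and named from fixed markers. The rule that turns marker scores into names was set with the clusters in view, and 3 versions were tried. The first left out 1373 cells that the second called trophoblast-like, because a single epiblast gene led their clusters. The third lowered the score limit from 0.4 to 0.35 to take in 97 further cells of a wild-type Day 10 library, partly because the resulting shares were then close to ones known from earlier work on these data, and was set aside for that reason. The second is reported, and the other two were run as alternatives. No doublet caller was run. The 290 cells of clusters that mixed trophoblast with other markers were left unnamed, among 441 unnamed cells. The 124 barcodes found in more than 1 library were at most 16 for a pair of libraries.

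UMIs were summed per library over trophoblast-like cells, or over LAIR2-high (at least 100 CPM) and other trophoblast-like cells, and tested with edgeR 4.0.16 (R 4.3.3; TMM, low-count filter, quasi-likelihood test, Benjamini-Hochberg, false discovery rate of 1%) or, as an alternative, DESeq2 1.42.0. Standard errors were derived from the F statistic. The Day 10 comparison of genotypes was fitted but not read for the members, because Day 10 chose the genes and its LAIR2-high cells lay almost wholly in the mutant library. The share test planned over all 11 libraries was for the same reason read over Day 12 and Day 14 only. Named genes were the members, the 10 largest changes in each direction between LAIR2-high and other cells among genes with a symbol (same sign in every library, average of at least 10 CPM) and the fixed lists. Of 9 macrophage and blood genes, 0 were paired with an identifier, so that this list was not analysed here. The limit of 20000 CPM of CGA and the pairs of clusters compared were chosen after seeing the data. On simulated counts for LAIR2-high against other cells, 100% of 100 genes changed by a log2 fold change of 1 were recovered. Each simulated gene had the spread typical of its level, not its own, and the same base level in every library. The labels call B1 and B2 batches. Deviations of B1 from the group mean correlated at 0.11 to 0.20 between wild-type days at 0.0016 between mutant days and at -0.19 to 0.077 between genotypes.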

Additional observations from a re-analysis of the deposited data

How the results depend on the processing

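The 4 members tested in LAIR2-high cells stayed higher under each alternative run, among them uncorrected counts, DESeq2, other LAIR2 limits, deeper cells and both other naming rules; the call was lost for ECM1 without the library as a block, at 1.50. Leaving out 1 library in turn gave log2 fold changes of 4.43 to 4.84 for CALCB, 2.99 to 3.40 for ISM2, 2.18 to 2.49 for LGALS3 and 1.44 to 1.68 for ECM1. The first naming rule gave a share difference over all 3 days of 15.9 percentage points and the third gave 14.2; no member changed its call under either. Over the members' results, with the Day 10 comparison of genotypes left out, 557 alternatives kept direction and call, 17 turned direction and 1 lost the call. The cause was not tested. Most of these alternatives belong to the genotype and day comparisons, in which no member was called, so that keeping the call there meant staying uncalled.

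The counts of genes called between genotypes and days were small and moved. For mutant against wild type at Day 10, 25 genes were called; DESeq2 called 766, library totals 66, no filter 86, all cells 0 and both forms of the replicate block 0, and leaving out a library gave 0 to 134. At Day 12, with 1 gene called, DESeq2 called 270, all cells 0, and the replicate block within genotype 0, with 0 to 2 when a library was left out. At Day 14, with 0 called, DESeq2 called 286 and no filter 1, with 0 to 1. For Day 14 against Day 12, DESeq2 called 98 genes in wild type (0 to 3 without a library) and 176 in the mutants, where no filter gave 2 and all cells and both replicate blocks 0 (0 to 2 without a library). For the change in the mutant effect DESeq2 called 91, with 0 to 1. The Day 10 comparison could not be fitted without its lone mutant library.

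Directions turned only for members that had not passed. Under library totals LGALS3 was -0.027 between mutant days. Under the replicate block shared by both genotypes it was -0.15 there and 0.047 for the genotypes at Day 14. Without the B1 wild-type library of Day 14, the genotype difference at Day 14 was 1.75 for LGALS3 and 0.68 for CALCB, the wild-type change was -0.22 for ISM2, -0.15 for LGALS3, -0.30 for ECM1 and -0.17 for CALCB, and the change in the mutant effect was 0.56 for LAIR2, 1.02 for ISM2, 0.18 for LGALS3 and 0.62 for ECM1. Without the B2 library, the difference at Day 14 was -0.11 for LAIR2 and -0.024 for ECM1. LGALS3 between mutant days was -0.35 without the B1 library of Day 12 and -0.15 without the B1 library of Day 14. When a library was left out, the genotype difference at Day 14 thus ranged to 1.97 for LAIR2, from -1.08 for LGALS3, to 2.87 for ECM1 and from -1.12 for CALCB. The wild-type change between days ranged to 2.32 for ISM2, 2.68 for LGALS3, 2.70 for ECM1 and 1.63 for CALCB, the mutant change of LGALS3 to 0.54, and the change in the mutant effect from -1.53 for LAIR2 and for ISM2, -2.66 for LGALS3 and -2.38 for ECM1. The share difference over all 3 days, which includes the Day 10 libraries that chose the genes and is not read as a test, ranged from 3.60 to 18.8 percentage points when a library was left out, and over Day 12 and Day 14 from -3.43 to 10.6 percentage points, an alternative added after seeing the data.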

Other observations

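The members were also present in unnamed cells, which entered only the alternatives over all cells and no main comparison. In the B1 library of wild-type Day 14, an unnamed cluster of 54 cells with a median of 9143 UMIs held 1597 CPM of LAIR2, 2556 CPM of ISM2, 590 CPM of LGALS3, 960.3 CPM of ECM1 and 2031 CPM of CALCB, and 9.81% of its UMIs were mitochondrial. Its ISM2 level was above that of every trophoblast-like cluster of that library, the highest of which held 1857 CPM. In the B2 library of wild-type Day 10, an unnamed cluster of 97 cells held no LAIR2 UMI, which allows a share of cells with a UMI of up to 3.09%.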
